A study of Mus musculus with 12 samples.

Results

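Genes for sensing and handling foreign chemicals and lipids were followed in mouse liver after paracetamol (acetaminophen, APAP) overdose. They were chosen by name, as receptors and partners with a known role in drug and lipid metabolism, and were 7 of the 24187 genes in the count table: Nr1i2, Nr1i3, Ahr, Arnt, Rxra, Ppara and Por. All 7 passed the filter on low counts, which kept 22581 genes. The livers came from 12 mice aged 10 to 12 weeks, whose strain is written as C57BL/6J in one place and as C57BL6/JOlaHsd in another. The control group held 3 mice, untreated by the labels, whereas the methods describe saline after 12 h of fasting, as they do fasting before APAP. In the vehicle group, 5 mice received APAP and then PBS, and in the hAAM group, 4 mice received APAP and then human alternatively activated macrophages. The labels give a dose of 350 mg/kg APAP. The methods name 350 or 500 mg/kg, and the sequencing is presented together with the model of severe injury, for which 500 mg/kg is given, so the sources differ. Vehicle or cells are described as injected 16 h after APAP, and collection of livers as 32 h or 36 h after APAP, in descriptions that do not single out the sequenced mice. The sex of the mice is not given in the sources used here. A piece of whole liver was sequenced, so its RNA pools all cell types, and the transferred cells were human.

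Nuclear receptors are transcription factors, many of which are controlled by small molecules. Nr1i2 encodes PXR and Nr1i3 encodes CAR, which raise drug-metabolising enzymes when foreign chemicals arrive, and Ppara encodes PPARα, which drives fatty acid oxidation in the fasted liver. Each of these receptors binds DNA together with RXRα, the product of Rxra. Ahr encodes a ligand-activated factor of another family that pairs with the product of Arnt to induce genes such as Cyp1a2. Por encodes the reductase that passes electrons to the microsomal cytochromes P450, the enzymes that also turn APAP into its toxic metabolite.

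The DNA contact of the nuclear receptors among these genes starts with a zinc finger whose cysteines hold a zinc ion, and the coding bases of this first finger are shown because it is what joins Nr1i2, Nr1i3, Ppara and Rxra as a family. The 63 bases run from the first to the fourth cysteine codon in the GENCODE M21 transcripts, with the codons from the third to the fourth cysteine in capitals.
Nr1i2 (chr16:38265928-38265990, minus strand): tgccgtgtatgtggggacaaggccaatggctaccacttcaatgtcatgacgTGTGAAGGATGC
Nr1i3 (chr1:171214409-171214471, plus strand): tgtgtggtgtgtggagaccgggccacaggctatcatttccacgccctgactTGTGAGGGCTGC
Ppara (chr15:85787203-85787265, plus strand): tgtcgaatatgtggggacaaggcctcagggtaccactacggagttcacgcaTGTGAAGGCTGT
Rxra (exons 3 and 4, within chr2:27741176-27741798, plus strand): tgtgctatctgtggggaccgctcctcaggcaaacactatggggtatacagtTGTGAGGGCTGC
All coordinates are of GRCm38. Nr1i2 and Nr1i3 shared 44 of these bases (69.8%), as did Nr1i2 and Ppara. The lowest identity was between Nr1i2 and Rxra, with 36 bases (57.1%). Ahr, Arnt and Por belong to other protein families.

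Control livers held 60870399 to 74056505 counts, vehicle livers 50859599 to 61826952 and hAAM livers 47391650 to 55379420, so that control livers were deeper than all APAP livers but vehicle replicate 5. Levels below are CPM, counts scaled to a common library total, with TMM, a factor that corrects for differences in RNA composition, which was 0.83 to 0.86 in control livers and 0.93 to 1.14 in livers after APAP. The livers carried hepatocyte markers throughout, whose summed level over 6 genes was 71692 to 102119 CPM in control, 73675 to 105549 CPM in vehicle and 77763 to 108114 CPM in hAAM livers. Vehicle replicate 3 and hAAM replicate 4 stood apart from all other pairs of APAP livers. Their counts differed by 1.19 times counting noise, compared to 2.37 to 4.95 times for the other 35 pairs, although the labels put them in different treatments. Where leaving them out changed a call of the 7, or moved a count of related genes by over 1.5 times, the value without them is given too.

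In control livers Rxra had the highest level per transcript length (RPKM, the CPM divided by the exon length in kilobases), 90.7 ± 8.53 (SD, n = 3). Por followed at 42.4 ± 6.39 and Ppara at 40.0 ± 6.46, and the ranges of these genes overlapped. Nr1i2 stood at 21.7 ± 0.84, Ahr at 14.8 ± 2.47, Arnt at 8.90 ± 0.67 and Nr1i3 at 4.29 ± 1.09, each apart from its neighbours. The level and rank of Nr1i3 are uncertain. Of its 4414 exon bases 3304 are shared with an antisense gene, and whether the counting used strand is not stated. After APAP and vehicle the order changed at the top, with Por at 72.7 ± 12.3 and Rxra at 69.1 ± 4.00 RPKM (n = 5), which overlapped. Arnt and Nr1i3, the lowest pair, also overlapped in that group. In hAAM livers Rxra at 66.2 ± 8.88 and Por at 54.2 ± 15.5 RPKM overlapped again (n = 4).

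**Figure D1:**
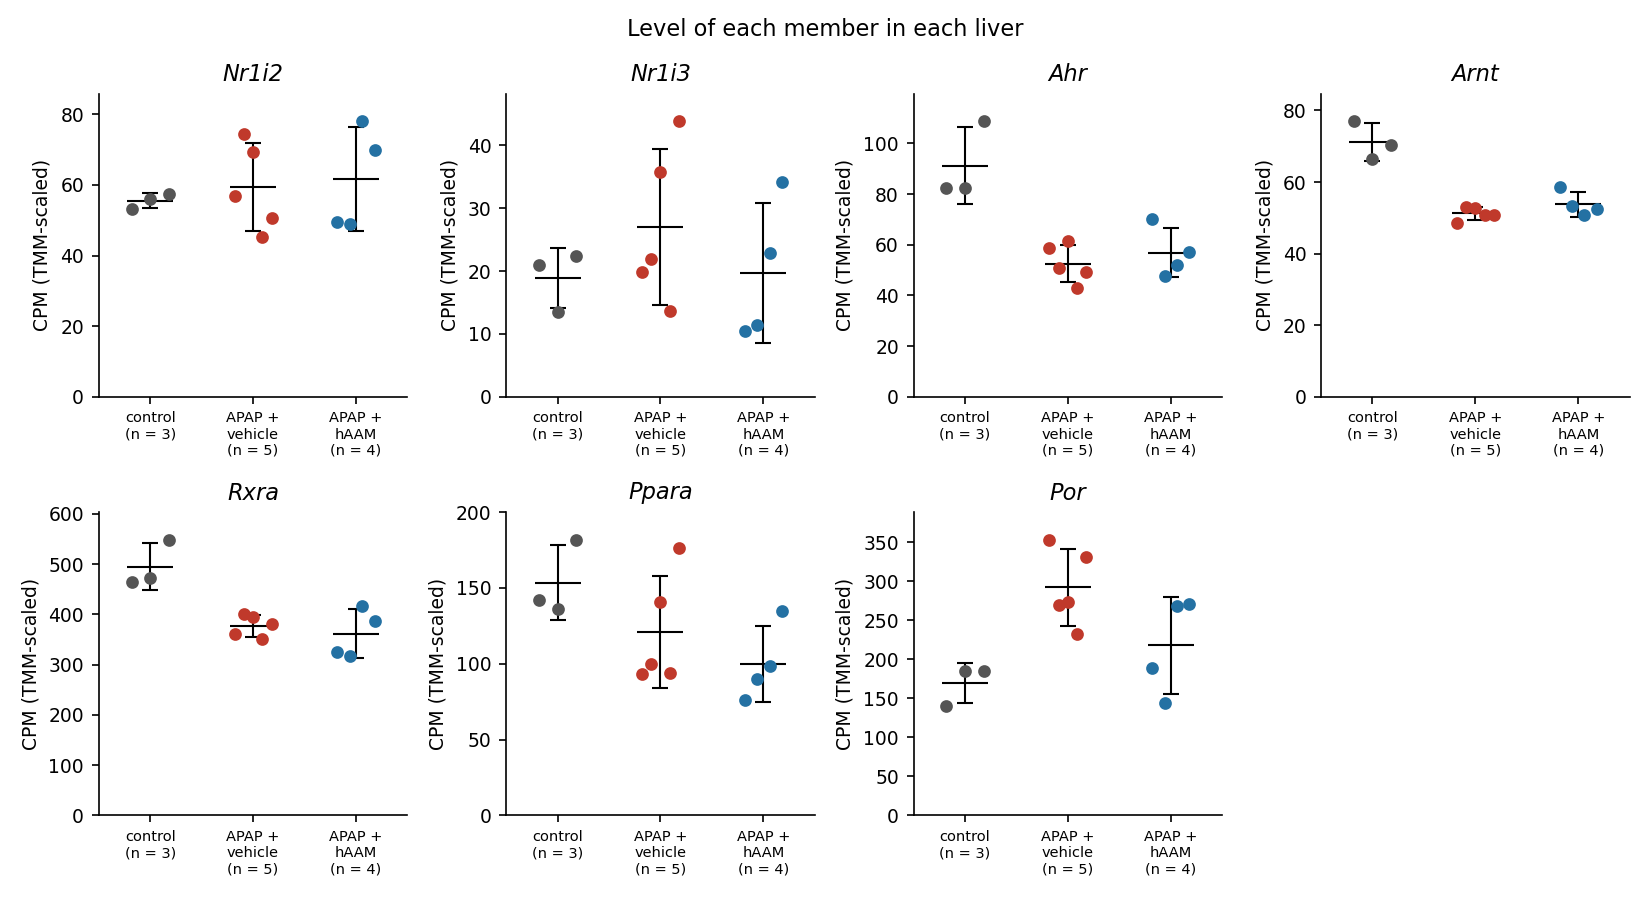
TMM-scaled CPM of each gene on the vertical axis, from 0, in each of the 12 livers by group on the horizontal axis; points are livers, the long line is the mean and the whiskers are 1 SD. Ahr, Arnt and Rxra lie lower in every APAP liver than in every control liver, whereas Por lies higher in all vehicle livers.

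The first question was whether APAP injury with vehicle changed these genes. Against control, 4 of 7 passed the FDR threshold of 0.05 in edgeR's quasi-likelihood test: Ahr, Arnt and Rxra fell and Por rose. Over all genes tested 29.8% passed, 15% higher and 14.8% lower. The median log2 fold change of the 7 was -0.34 and that of all genes 0.012. DESeq2 called the same numbers in each direction. Nothing particular to the 7 can be read from these counts.

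Ahr was at 82.4, 82.5 and 109 CPM in the control livers. The vehicle livers gave 58.5, 50.7, 61.4, 42.8 and 49.5 CPM, and the hAAM livers 70.1, 47.8, 52.1 and 57.3 CPM. Every APAP liver was below every control liver. Compared to control, Ahr fell by 0.80 on the log2 scale in vehicle livers (SE 0.147, edgeR FDR 0.0025). In hAAM livers it fell by 0.68 (SE 0.155, edgeR FDR 0.011). In bulk tissue, fewer cells of a type and less RNA per cell cannot be told apart. The fall with hAAMs missed the threshold without control replicate 3, at an FDR of 0.0553. Ahr (ENSMUSG00000019256) lies at chr12:35497974-35535038 on the minus strand, and 127 of its exon bases are shared with the antisense transcript Gm48236, which also fell with vehicle, by 1.11 on the log2 scale (edgeR FDR 0.0457), at a mean of only 0.61 CPM in control.

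Arnt, the partner of Ahr, was the least variable of the 7 after APAP, with a coefficient of variation of 3.59% in vehicle and 6.51% in hAAM livers. It was at 77.0, 66.5 and 70.3 CPM in control and at 48.7, 53.2, 52.9, 50.8 and 50.8 CPM in vehicle livers. In hAAM livers it was at 58.8, 53.2, 50.7 and 52.3 CPM. The APAP livers were again all below the control livers. Arnt thereby fell by 0.48 on the log2 scale after vehicle (SE 0.0701, edgeR FDR 0.000809). After hAAMs it fell by 0.41 (SE 0.0738, edgeR FDR 0.00411). Arnt (ENSMUSG00000015522) spans chr3:95434388-95497240 on the plus strand.

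Rxra, the shared partner of the lipid and drug receptors, was at 465, 472 and 549 CPM in control. It was at 360, 401, 395, 350 and 380 CPM in vehicle and at 325, 316, 417 and 387 CPM in hAAM livers. No APAP liver reached the control range. Rxra fell by 0.39 on the log2 scale in the vehicle group (SE 0.111, edgeR FDR 0.0197). In the hAAM group the log2 fold change was -0.46 (SE 0.116, edgeR FDR 0.0183). Both calls rested on control replicate 3, without which the FDR was 0.1 with vehicle and 0.0867 with hAAMs. The call with hAAMs was also lost without hAAM replicate 1 (0.0554) or 2 (0.0519), and when only the 2 groups compared were fitted (0.0689). Rxra (ENSMUSG00000015846) spans chr2:27676440-27762957 on the plus strand.

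Por rose with vehicle. Its level was 141, 185 and 185 CPM in control and 354, 270, 273, 233 and 332 CPM in vehicle livers. The lowest vehicle liver was above the highest control liver. The log2 fold change was 0.78 (SE 0.214, edgeR FDR 0.0173), and the FDR was 0.075 without control replicate 1. In hAAM livers Por was at 189, 144, 269 and 271 CPM, of which hAAM replicate 2 lay within the control range. The difference from control, 0.36 (SE 0.219, edgeR FDR 0.269), did not pass the threshold, whereas scaling by total counts gave 0.64 (edgeR FDR 0.0275). Por (ENSMUSG00000005514) spans chr5:135670033-135735326 on the plus strand.

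Ppara was lower in most APAP livers. It was at 142, 136 and 182 CPM in control and at 93.4, 99.9, 141, 93.9 and 177 CPM in vehicle livers, where 2 livers overlapped control. With hAAMs it was at 76.1, 90.0, 98.2 and 135 CPM, below all control livers, though only just for hAAM replicate 4. Neither difference from control passed the threshold, at -0.34 on the log2 scale for vehicle (SE 0.232, edgeR FDR 0.285) and -0.62 for hAAMs (SE 0.244, edgeR FDR 0.0908). Without vehicle replicate 3 and hAAM replicate 4, Ppara with hAAMs stood at -0.80 (edgeR FDR 0.0441). Ppara (ENSMUSG00000022383) spans chr15:85734983-85802819 on the plus strand.

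Nr1i2 did not pass the threshold in any comparison with TMM scaling, whereas scaling by total counts gave 0.43 against control in both groups (edgeR FDR 0.03 with vehicle and 0.0452 with hAAMs). It was at 53.2, 56.0 and 57.4 CPM in control, with a far wider range after APAP: 56.9, 74.6, 69.5, 45.3 and 50.6 CPM with vehicle and 49.4, 48.9, 78.1 and 69.9 CPM with hAAMs. The APAP livers lay on both sides of the control range. Nr1i2 differed from control by 0.10 on the log2 scale with vehicle (95% interval -0.31 to 0.50) and 0.15 with hAAMs (-0.27 to 0.57). Nr1i2 (ENSMUSG00000022809) spans chr16:38248323-38294824 on the minus strand.

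Nr1i3 varied most among livers, from 10.4 to 43.8 CPM after APAP. Control replicate 2, at 13.4 CPM, lay below the other control livers, at 20.96 and 22.4 CPM. The vehicle livers gave 19.8, 21.9, 35.7, 13.7 and 43.8 CPM and the hAAM livers 10.4, 11.4, 22.8 and 34.1 CPM. All 3 groups overlapped, and the wide interval of the fold change with vehicle, -0.43 to 1.46 on the log2 scale around 0.51, leaves a change of either sign within it. With hAAMs the estimate was 0.06 (-0.92 to 1.03), and without the near-identical livers it was -0.34 (edgeR FDR 0.608). Nr1i3 (ENSMUSG00000005677), at chr1:171213970-171220701 on the plus strand, shares 3304 of its 4414 exon bases with the antisense gene Tomm40l. Whether the counting used strand is not stated, so reads of the shared bases may have been dropped or given to the other gene. Vehicle replicate 5, the highest for Nr1i3, was also the highest for Tomm40l, at 14.7 CPM. Tomm40l differed by 0.47 (edgeR FDR 0.304) with vehicle and 0.15 (edgeR FDR 0.789) with hAAMs.

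The second question was whether the livers given hAAMs differed from those given vehicle. None of the 7 passed the threshold, and 0 of 22581 genes did (0%), with 1133 at an unadjusted p under 0.05. DESeq2 called 1 gene. Without the near-identical livers edgeR called 0 and DESeq2, in a run added after seeing the data, called 88. The intervals give the sizes of difference that these livers leave possible. For Arnt the log2 difference was 0.07 (95% interval -0.07 to 0.21), for Rxra -0.06 (-0.29 to 0.16), for Ahr 0.11 (-0.19 to 0.41) and for Nr1i2 0.05 (-0.32 to 0.42). The intervals were wider for Ppara, -0.28 (-0.75 to 0.19), and for Nr1i3, -0.46 (-1.31 to 0.40). Without the near-identical livers, 1 from each treatment, Nr1i3 stood at -0.74 (edgeR FDR 0.796). Por had the lowest p of the 7, 0.0477 before adjustment and an edgeR FDR of 0.966, with a difference of -0.42 (-0.84 to -0.005). Against control, the hAAM group had 3 of the 7 genes lower (Ahr, Arnt and Rxra) and 0 higher, whereas 20.7% of all genes passed, 10.7% higher and 9.96% lower. The 2 comparisons against control share the control livers.

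**Figure D2:**
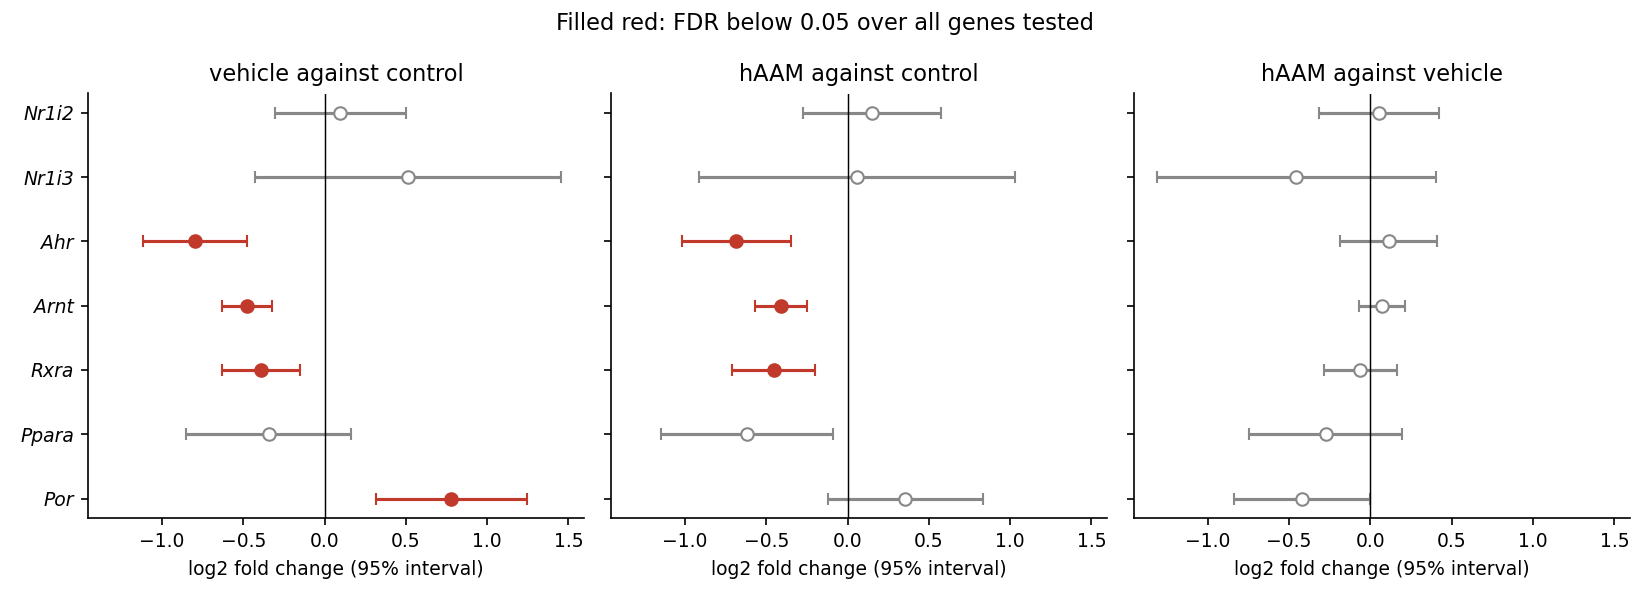
The log2 fold change of each gene with its 95% interval on the horizontal axis, for the 3 comparisons; filled red points passed an FDR of 0.05 over all genes tested. Ahr, Arnt and Rxra lie below 0 against control in both APAP groups, with vehicle at -0.80, -0.48 and -0.39, and Por lies above 0 with vehicle, at 0.78.

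Whether Arnt and Rxra, and with hAAMs also Ahr, were called depended on the scaling. When only the total counts were used for scaling, the median over all genes tested moved from 0.012 to 0.357 on the log2 scale with vehicle against control, and from 0.016 to 0.317 with hAAMs. The calls with vehicle then split into 8637 higher and 1110 lower, compared to 3380 and 3339 with TMM. With hAAMs they split into 6559 higher and 781 lower, compared to 2418 and 2248. In that setting Arnt was at -0.13 and Rxra at -0.05 with vehicle, neither called, Ahr at -0.45 was still called (but not with hAAMs, at -0.38, edgeR FDR 0.0757), Ppara turned to 0.002, and Nr1i2 became called at 0.43. The values of Ahr, Arnt, Rxra and Ppara lay below the shifted median, and those of Nr1i2, Nr1i3 (0.86) and Por (1.13) above it.

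Markers of pericentral hepatocytes, the cells around the central vein where many P450 enzymes are concentrated, fell in the same livers. The summed level of 8 such markers was 3921 to 6256 CPM in control, 350 to 1454 CPM in vehicle and 453 to 2835 CPM in hAAM livers, and 8 of 8 fell with vehicle, 6 of 8 with hAAMs. Macrophage markers, to be read like the other marker counts against the 15% of all genes higher and 14.8% lower with vehicle, and 10.7% and 9.96% with hAAMs, rose for 2 of 5 genes in each APAP group, endothelial markers for 2 of 4 with vehicle and 1 of 4 with hAAMs (2 of 4 without the near-identical livers or by DESeq2), and stellate markers for 2 of 4 in each. Of 8 periportal markers 1 rose and 1 fell with vehicle, and 1 rose with hAAMs. Of 6 hepatocyte markers 1 fell with vehicle and 0 with hAAMs (3 and 1 by DESeq2). Of the neutrophil, cholangiocyte and T, NK and B cell markers (4 each), 0 passed in either comparison. Of these lists, 0 genes were at 0 in all livers of a group. Their part in the falls of Ahr, Arnt and Rxra was not tested.

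The counts of the related genes that follow are to be read against the 29.8% of all genes called with vehicle and the 20.7% called with hAAMs, and nothing particular to a list was tested. Among 14 RXR partners and related receptors, 5 fell and 1 rose with vehicle, and 3 fell with hAAMs (5 by DESeq2). Ppard, encoding a PPAR of broad expression, fell from 38.9, 51.5 and 34.9 CPM to 11.1 to 22.1 CPM (log2 fold change -1.55, edgeR FDR 0.00108). Rxrb, a close relative of Rxra, fell by 0.34 on the log2 scale (edgeR FDR 0.0101), while Rxrg, at 2.34 ± 0.60 CPM in control, rose by 0.52 (edgeR FDR 0.0419), a call not kept without the near-identical livers, where 0 of the list rose. Nr1h4, encoding the bile acid receptor FXR, fell by 0.47 with vehicle and by 0.50 with hAAMs (edgeR FDR 0.00398 and 0.00608). Its target Nr0b2 differed by 0.64 with vehicle, from 20.2 ± 6.04 to 31.6 ± 17.6 CPM, without passing the threshold (edgeR FDR 0.331).

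Of 9 genes around AHR and ARNT, 3 fell and 1 rose in each APAP group, though with hAAMs only 1 fell without the near-identical livers. The falls included Hsp90aa1, encoding a chaperone that holds AHR in the cytoplasm, at 128 to 187 CPM with vehicle against 280 to 373 CPM in control (log2 fold change -1.05, edgeR FDR 0.00821). Arnt2, a relative of Arnt, rose from 0.114, 0.0472 and 0.0395 CPM, of 2 to 6 counts a library, to 0.232 to 0.499 CPM with vehicle (edgeR FDR 0.00412), and a fold against counts this low is not given. The repressor Ahrr differed by 0.46 (edgeR FDR 0.317) and Tiparp, another AHR-induced gene that restrains it, by -0.28 (edgeR FDR 0.395).

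Genes that AHR induces were mixed, with 1 of 7 tested higher and 1 lower after APAP and vehicle. Cyp1a2 fell by 2.06 on the log2 scale (edgeR FDR 0.0475), from 553, 178 and 292 CPM to at most 190 CPM, and the groups overlapped. Nqo1, a quinone reductase also induced by oxidative stress, rose by 1.42 (edgeR FDR 0.00131), from 2.15 ± 0.75 to 5.75 ± 0.76 CPM, and by 1.11 with hAAMs (edgeR FDR 0.00839). Cyp1a2 is also a pericentral marker, and without the near-identical livers 1 of the 7 was higher and 0 lower.

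Of 18 genes induced by PXR and CAR, 6 fell and 1 rose with vehicle, at a list median of -0.96 against 0.012 for all genes. With hAAMs 1 fell and 2 rose, at a median of -0.56, and 1 fell and 1 rose without the near-identical livers. DESeq2 called 8 lower and 2 higher with vehicle, and 2 and 2 with hAAMs. Cyp2c29, a drug-metabolising P450, fell most, by 3.95 (SE 1.05, edgeR FDR 0.0149), from 779, 589 and 537 CPM to 3.16 to 112 CPM. Cyp3a11, the main target of PXR, fell by 2.59 (edgeR FDR 0.0347), from 613 to 1644 CPM in control to 42.2 to 435 CPM. The hAAM livers ranged from 107 to 1369 CPM and the fall was not called (edgeR FDR 0.38). Cyp2b10, the classic CAR target, stood at or below 1.88 CPM in all livers and was not called (edgeR FDR 0.496). Cyp2c55 differed by -1.82 (edgeR FDR 0.0627). Abcb1a, a drug efflux pump, rose from 2.77 ± 0.16 to 8.38 ± 0.93 CPM (log2 fold change 1.60, edgeR FDR 2.62e-05). Markers of pericentral hepatocytes, where many P450 enzymes are concentrated, fell in the same livers (list median -3.27 with vehicle). Their part in the falls among the PXR and CAR targets was not tested.

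Of 20 genes induced by PPARα, 1 was higher and 2 were lower with vehicle, and 2 were lower with hAAMs. The list median with hAAMs was -0.20, and -0.53 without the near-identical livers. Cyp4a14, a fatty acid hydroxylase, rose by 4.01 (SE 1.30, edgeR FDR 0.0352), from 11.7 to 41.0 CPM in control to 68.6 to 947 CPM with vehicle. Cyp4a10 differed by 2.40 without passing (edgeR FDR 0.0569). Of 12 coactivators and corepressors, 6 fell and 2 rose with vehicle, and 6 fell and 1 rose with hAAMs (4 and 1 without the near-identical livers). With vehicle the corepressor Nrip1 fell from between 58.0 and 73.8 CPM to between 33.1 and 38.8 CPM (log2 fold change -0.81, edgeR FDR 9.15e-05). The coactivator Ppargc1a rose by 1.19 (edgeR FDR 0.0228).

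Of 10 genes listed as partners or recipients of electron transfer by POR, 5 fell and 0 rose with vehicle, while Por itself rose. With hAAMs 2 fell and 0 rose, or 1 and 0 without the near-identical livers. Cyp2e1, the P450 that oxidises APAP, fell from 3992, 2555 and 3750 CPM to 239 to 1300 CPM (log2 fold change -2.37, edgeR FDR 0.0177). Cyp2e1 is also a pericentral marker and the largest part of their summed level in control. Cyb5r3, the cytochrome b5 reductase, fell by 0.70 (edgeR FDR 0.00523), and Cyb5a, its partner, differed by -0.07 (edgeR FDR 0.791).

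**Figure D3:**
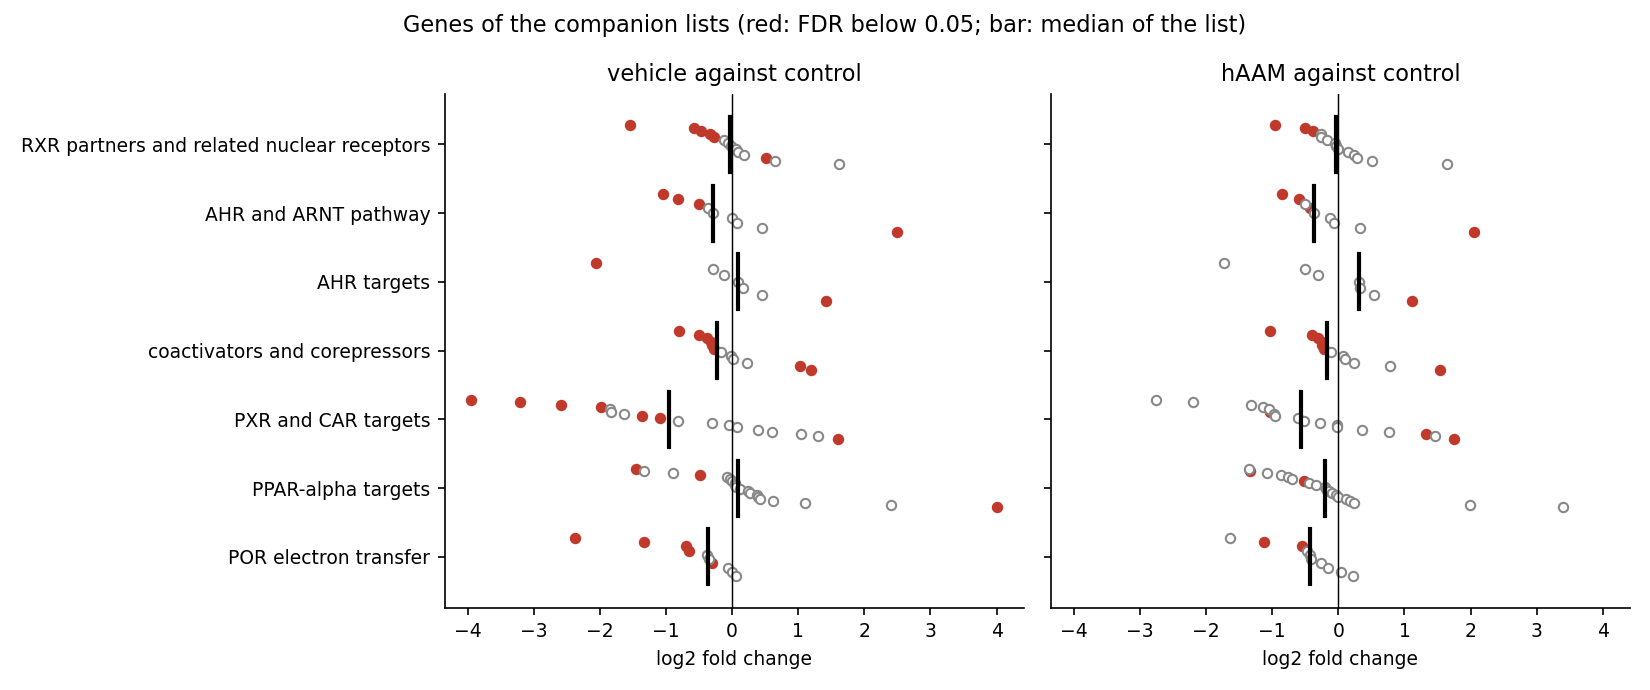
Log2 fold change on the horizontal axis of each gene in the 7 lists of related genes, against control for vehicle and hAAMs; red points passed an FDR of 0.05, open points did not, and the bar is the list median. The bar of the PXR and CAR targets stands at -0.96 with vehicle.

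Across the 9 livers given APAP, the 7 genes were compared in pairs by their log2 CPM, 21 pairs in all. By Pearson r, only Nr1i3 and Ppara passed after adjustment over the 21 pairs (Pearson r = 0.93, exact permutation p = 0.000108, adjusted p = 0.00226; Spearman rho = 0.97, exact permutation p = 0.000165, adjusted p = 0.00347). Leaving out the 2 livers farthest from the Nr1i3 median gave r = 0.89, and without the near-identical livers the 7 others gave r = 0.90 (exact permutation p = 0.000794, adjusted p = 0.0167) and rho = 0.93 (adjusted p = 0.142, exact permutation). Vehicle replicate 5 had the highest level of both genes and hAAM replicate 1 the lowest. Tomm40l, antisense to Nr1i3, was at 14.7, 14.0 and 12.7 CPM in vehicle replicates 5 and 3 and hAAM replicate 4. In the other APAP livers it was at 6.31 to 8.08 CPM. How far reads of the shared exon bases shaped the relation of Nr1i3 and Ppara was not tested. Nr1i2 and Rxra followed with r = 0.84 (exact permutation p = 0.00672, adjusted p = 0.0706; rho = 0.92, adjusted p = 0.0138), and the 7 livers gave r = 0.82 (exact permutation, adjusted p = 0.235). The lowest coefficient was between Arnt and Por, r = -0.63 (exact permutation p = 0.0821, adjusted p = 0.288). The relations were computed across both treatments, and values within each treatment were not computed.

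**Figure D4:**
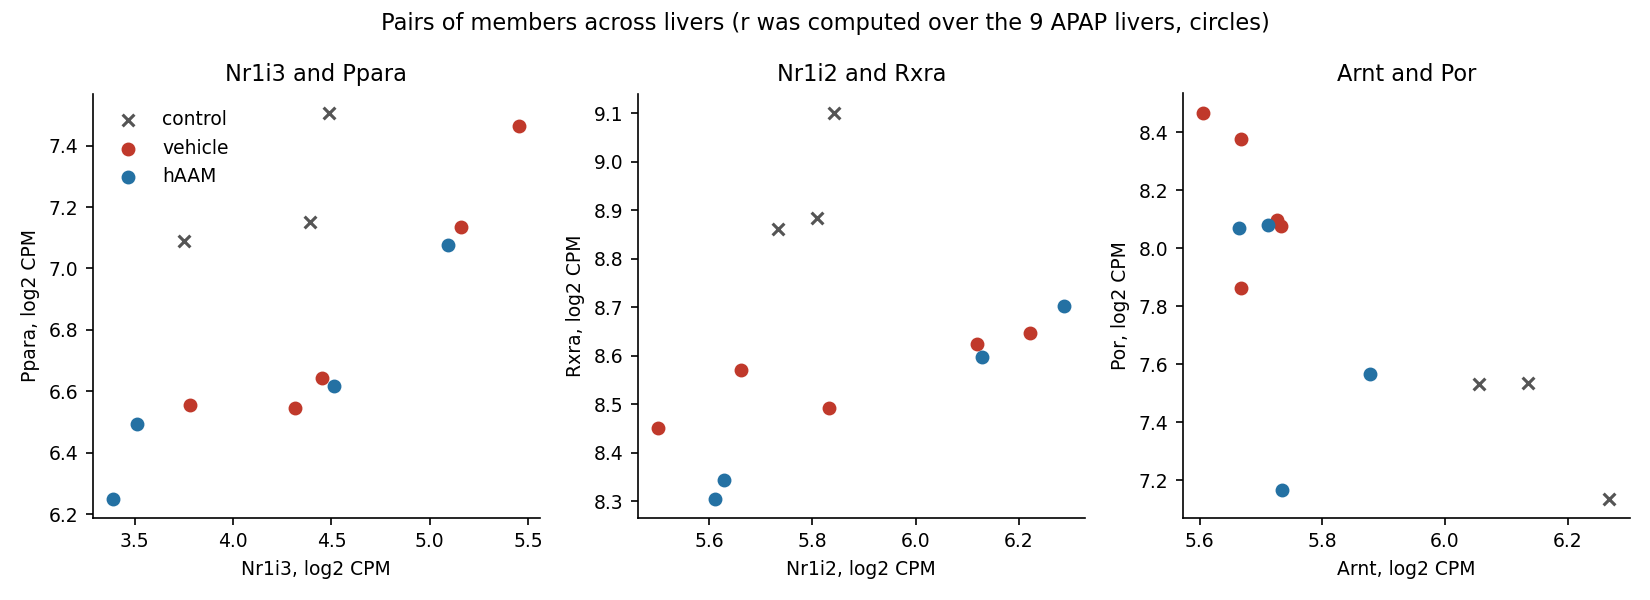
Log2 CPM of the gene pairs with the highest, the next and the lowest Pearson r, with 1 point per liver; circles are the 9 APAP livers used for r and crosses the control livers. Nr1i3 and Ppara rise together across the circles (r = 0.93), whereas Arnt and Por do not (r = -0.63).

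The genes whose pattern over the 9 APAP livers was most like each of the 7 were found by Pearson r of log2 CPM, as a description. The search covered 11171 genes whose mean log2 CPM reached 2. Ppara was most like Eci2 (r = 0.99), Gk (0.99) and Slc25a20 (0.98). Nr1i3 was most like Epb41l4b (0.98), Cpox (0.98) and Rdh9 (0.98), and Nr1i2 like Pacsin3, Surf1 and Clk3 (0.98 to 0.96). Rxra was most like Map3k21 (0.99), Ppp1r37 and Ranbp10 (0.98 each). Ahr was most like Angptl2 (0.95), Hacd2 and Pycrl (0.93 each), Arnt like Selenok (0.97), Sart3 and Fundc1 (0.93 each), and Por like Scyl3 (0.96), Fzd7 and Atg2a (0.95 to 0.96).

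The start regions of the called genes with an entry, and of Nr1i3 and Ppara, which moved together, are shown from 250 bases before to 50 after the RefSeq start (GRCm38.p6). Of the 7 genes 6 matched an entry, Ahr did not. Capitals mark the letters of the searched motifs, each on both strands: the nuclear receptor hexamer AGGTCA, the AHR-ARNT core TNGCGTG, the E-box CACGTG, the GC box GGGCGG and the TATA box TATAAA.
Nr1i3 (chr1:171213720-171214019, plus strand): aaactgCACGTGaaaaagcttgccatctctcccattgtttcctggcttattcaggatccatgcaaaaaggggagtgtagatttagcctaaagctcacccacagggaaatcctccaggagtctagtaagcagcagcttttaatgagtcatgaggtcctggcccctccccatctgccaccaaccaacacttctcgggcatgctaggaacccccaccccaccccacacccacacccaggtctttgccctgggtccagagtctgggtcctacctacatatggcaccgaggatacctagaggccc
Ppara (chr15:85735526-85735825, plus strand): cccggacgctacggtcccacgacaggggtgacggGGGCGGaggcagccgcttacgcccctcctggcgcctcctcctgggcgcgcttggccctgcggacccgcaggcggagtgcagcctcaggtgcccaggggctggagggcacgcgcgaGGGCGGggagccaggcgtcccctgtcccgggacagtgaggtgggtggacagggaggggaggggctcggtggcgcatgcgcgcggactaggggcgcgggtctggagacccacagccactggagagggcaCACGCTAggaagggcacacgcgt
Arnt (chr3:95434140-95434439, plus strand): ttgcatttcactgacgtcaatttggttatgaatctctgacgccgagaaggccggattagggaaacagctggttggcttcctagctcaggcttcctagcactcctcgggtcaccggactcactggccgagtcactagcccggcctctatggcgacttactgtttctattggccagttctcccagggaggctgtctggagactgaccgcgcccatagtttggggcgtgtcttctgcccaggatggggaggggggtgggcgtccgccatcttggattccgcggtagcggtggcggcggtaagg
Rxra (chr2:27676951-27677250, plus strand): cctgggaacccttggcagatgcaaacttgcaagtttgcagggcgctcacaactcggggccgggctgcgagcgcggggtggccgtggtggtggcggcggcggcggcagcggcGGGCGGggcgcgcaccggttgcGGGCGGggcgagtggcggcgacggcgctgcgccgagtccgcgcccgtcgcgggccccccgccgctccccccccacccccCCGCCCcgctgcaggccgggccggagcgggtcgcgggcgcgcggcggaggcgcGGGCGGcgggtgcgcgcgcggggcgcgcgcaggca
Por (chr5:135688895-135689194, plus strand): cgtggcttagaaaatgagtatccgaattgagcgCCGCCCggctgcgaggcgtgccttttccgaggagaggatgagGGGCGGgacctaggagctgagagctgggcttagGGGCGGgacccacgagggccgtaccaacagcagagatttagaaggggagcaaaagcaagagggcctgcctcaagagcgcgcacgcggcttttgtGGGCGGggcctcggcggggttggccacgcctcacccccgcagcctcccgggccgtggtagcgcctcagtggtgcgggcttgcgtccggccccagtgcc
Rxra and Por each held 4 GC boxes and Ppara 2, a match present in 35.7% of 32851 windows of this length. Ppara held 1 AHR-ARNT core (5.07% of windows) and Nr1i3 1 E-box (7.15%), and Arnt held 0 of the 5 motifs. The hexamer (16.3% of windows) occurred in none of the 5 windows shown, and neither did the TATA box (13.6%). Rxra has a further RefSeq start whose window, at chr2:27709042-27709341, held 2 hexamers and 1 CG dinucleotide. Nr1i2 and Nr1i3 had 2 and 3 CG dinucleotides, compared to 19 in Arnt, 27 in Por, 30 in Ppara and 55 in Rxra. The ratio of observed to expected CG was 0.13 and 0.14 in Nr1i2 and Nr1i3, below the median of 0.38 over all windows, and 0.73 to 1.08 in the other 4.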

How the data were processed

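RNA was extracted from frozen liver, depleted of ribosomal RNA and made into directional libraries. The authors removed adapters with Cutadapt 4.6, used STAR 2.7.1a for alignment to GRCm38 and counted reads with summarizeOverlaps, and the deposited values are raw counts per Ensembl gene, not normalized. Groups came from the sample titles, and every column was mapped. The counting mode is not given in the sources used here. Symbols and exons came from GENCODE M21 (24128 of 24187 genes matched). The members and lists of related genes were chosen with earlier results of these data known.

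Counts were filtered with filterByExpr by group, scaled with TMM and fitted for all 12 livers with edgeR 4.0.16 (R 4.3.3), two-sided, with Benjamini-Hochberg FDR. Log2 CPM used a prior count of 2. In simulated counts 73% of genes changed 2-fold and 98% of those changed 4-fold were called with vehicle against control. P-values of the group tests set each difference against the spread between these livers, the near-identical pair included. Whether that pair came from separate animals was not tested. Pairs were tested by exact permutation over all pairings, two-sided. The named genes were the 7, the largest called rise and fall of each list, a preset set of relatives and targets, and the 3 most similar genes; 1 gene that this rule names is not reported here. Alternatives were DESeq2 1.42.0, other scalings and filters, 2-group fits, robust estimation, an FDR of 0.01, the replicate block, each liver left out, and both near-identical livers left out. Whether human transcripts reached mouse genes was not tested.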

Additional observations from a re-analysis of the deposited data

Results flagged for a closer look

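The 7 genes in the vehicle and hAAM groups gave 14 groups of livers, and in 0 of these did the highest or the lowest liver stand further from its neighbour than Dixon's 95% critical value allows.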

How the results depend on the processing

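Of the 7 genes, 4 were called with vehicle and 3 with hAAMs against control. At an FDR of 0.01 these were 2 and 1, and with 1 liver left out they ranged from 3 to 4 and from 1 to 4. Over all genes 6719 were called with vehicle and 4666 with hAAMs (0 between treatments). With hAAMs against control the count was 7340 with library-size scaling (89.4% higher, against 51.8%), 2729 with only the groups compared, 1543 at an FDR of 0.01 and 2419 to 5456 with 1 liver left out; with vehicle it was 3183 at an FDR of 0.01. Between treatments edgeR called 0 to 1 gene with 1 liver left out. DESeq2 called 1 gene there, and 88 (66 higher) without both near-identical livers, a run chosen after seeing the data. The cause was not tested.

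Fitted with the replicate block, 2959 genes were called with hAAMs and 4253 with vehicle. The same numbers did not pair the livers (correlations of deviations -0.458 to 0.385, and 2 of 12 livers were most like their own number). Under the block, the calls of Por (FDR 0.0785) and Rxra (0.0505) with vehicle were lost and Ppara was called (0.0468 with vehicle, 0.0387 with hAAMs). It turned Nr1i3 with hAAMs to -0.14.

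Some signs turned. Nr1i3 with hAAMs was -0.34 without both near-identical livers (-0.35 by DESeq2) and -0.34 to 0.27 with 1 liver left out. Between treatments Nr1i2 was -0.0018 with library-size scaling and -0.082 to 0.15 with 1 liver left out, and Ahr -0.0033 to 0.19. Ppara with vehicle was 0.0016 with library-size scaling, which also ended the calls of Arnt and Rxra in both groups and of Ahr with hAAMs. By Pearson r, 1 pair of the 7 passed in each alternative; by rho 2 passed over 9 livers and 0 over 7. Each of the 7 had at least 552 counts in every liver, while 3 to 5 livers a group limit the differences that could be seen.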
